A study of Ziziphus jujuba var. spinosa with 24 samples.

Results

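The genes described here are 44 transcripts of sour jujube leaves that stood low after 6 h and after 12 h of osmotic drought. Their means at 6 h and 12 h lay within 2 times of each other, and those at 48 h within 2 times of the control. The members were chosen from 29293 gene identifiers of the LOC form, among 32527 rows in all. Gene levels were taken as CPM, in which each library's counts are divided by their sum. In autotetraploid and in diploid leaves alike, a member had to show a mean at 6 h and at 12 h of at most 1/3 of the control mean, with all 3 libraries of each time below all 3 controls. The 12 h mean had to lie between 0.5 and 2 times the 6 h mean, and the 48 h mean between 0.5 and 2 times the control mean. The control mean had to lie between 5 and 1000 CPM, with 0.5 CPM added to every mean. The comparisons with the control and between 6 and 12 h therefore chose the members. They are given below as a description, with no test. Ratios between the ploidies, at a treatment or averaged over treatments, were not used by the rule, although they rest on the same libraries, and are tested. Differences between the ploidies in the change from control are tested too. They are built from ratios that the rule limited in each ploidy, which at 48 h bounded their size beforehand.

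RNA was sequenced from leaves of autotetraploid sour jujube plantlets and of the diploid, labelled wild type, in which the autotetraploid originated, a wild jujube. Each ploidy was sampled in a control environment and after 6, 12 and 48 h of drought, which gave 8 groups of 3 libraries. All plantlets had been kept in tissue culture over many generations, were cultured for 30 days and rooted for 45 days, and then stood in nutrient solution. Drought was imposed with polyethylene glycol (PEG6000), an osmotic agent that lowers the water available to the roots, brought up in daily steps to a final 20%. How the harvest times relate to these steps and to the hour of day is not given in the sources at hand, so drought and the hour of harvest cannot be told apart. Nothing in the labels says that the libraries of a group came from separate plants, so each p-value reflects how far the libraries scatter, and that scatter may be technical.

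Plants short of water close their stomata and slow leaf growth, and many transcripts of growth and photosynthesis are known to decline under such conditions. Many leaf transcripts also follow the daily cycle of light and dark. Polyploid plants carry additional copies of the whole chromosome set. Equal amounts of RNA entered each library, so the values are shares of the RNA. In whole leaves, fewer cells of a type and less RNA per cell cannot be told apart.

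Library totals ran between 30750412 and 50404402 counts, with a median of 37199250. The leaf markers RCA1 and RCA2, the activases of the carbon-fixing enzyme rubisco, had medians of 2400 and 10600 CPM over the 24 libraries, and the peroxide-degrading enzyme catalase had 2370 CPM. On the first principal component of the log2 levels, with 28.3% of the variance, the 6 h libraries lay at 33.9 to 39.4 in the autotetraploid and at 20.3 to 26.3 in the diploid. On the second component replicate 3 of the autotetraploid 12 h group stood apart at 26.0, against −6.8 and −13.1 in the other libraries of its group. Without it the rule chose 45 genes, among them all 44 members.

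None of the 44 members carries an established gene name. The reference annotation, of the ASM3175591v1 assembly, lists 35 of them under their identifier alone, and no role is given to any of them here. Among these 35, no pair were direct neighbours in the gene order of that assembly. The closest pair, LOC107432019 and LOC107432022, had 12 genes between them. Of 52 direct neighbours with a row in the count table, 37 lay in the same range of control levels, and 0 of these stood at 1/3 or less at both times in both ploidies. Of all 15387 genes in that range 113 did so. A count of 0 among so few genes, here and for the named genes below, is not read as a result. The median log2 ratio of the 37 neighbours to the control, averaged over 6 h and 12 h and both ploidies, was −0.16. Over the 15387 genes it was 0.05. Of 20 genes with established names, 0 were members and 0 stood at 1/3 or less in all 4 comparisons. The expansin EXPA5, which loosens cell walls, came near to it at 22.4% and 29.1% of control at 6 h and 12 h in the autotetraploid, and at 33.1% and 47.2% in the diploid. RCA1 stood below control at both times but reached 1/3 or less at 12 h only. It had 49.0% of control at 6 h and 6.38% at 12 h in the autotetraploid, and 63.7% and 7.13% in the diploid. Related named genes differed from these. RCA2 had 126% at 6 h and 23.6% at 12 h in the autotetraploid, and 139% and 35.8% in the diploid. EXPA4 had 44.5% and 44.4% in the autotetraploid, and 55.7% and 60.5% in the diploid. EXPL1 had 101% and 145% in the autotetraploid, and 83.1% and 107% in the diploid.

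The members were scarce among the genes of their level. In the control range lay 15387 LOC identifiers. Of these, 137 stood at 1/3 or less of control at 6 h in both ploidies, 462 did so at 12 h, and 113 at both times. The libraries of 105 of these 113 genes did not overlap with the controls. The condition on the 12 h to 6 h ratio left 64 genes, and the 48 h condition left the 44. Thus 61 genes met the depth but not the time course. Of them 29 missed only the 12 h to 6 h condition, 27 of these with a 12 h mean at 0.5 times the 6 h mean or less in at least 1 ploidy. Another 20 missed only the 48 h condition, and 12 missed both. All of those 20 missed it through low values, 19 in the autotetraploid and 11 in the diploid. Counted by itself, the autotetraploid had 92 genes that met every condition and the diploid 81.

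The limits did not fall into gaps between genes. LOC107435808 and LOC107430888 were just inside the depth limit, at 33.0% and 32.8% of control in the diploid at 6 h. LOC107414790 was just outside at 33.5% in the diploid at 12 h, as was LOC107414934 at 33.6% in the diploid at 6 h. For the 48 h condition, LOC107404539 was just inside at 51.5% in the diploid and LOC107409991 at 193% in the autotetraploid. LOC107409613 was just outside at 49.9% in the autotetraploid, and LOC107404645 at 49.2% in the diploid.

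**Figure D1:**
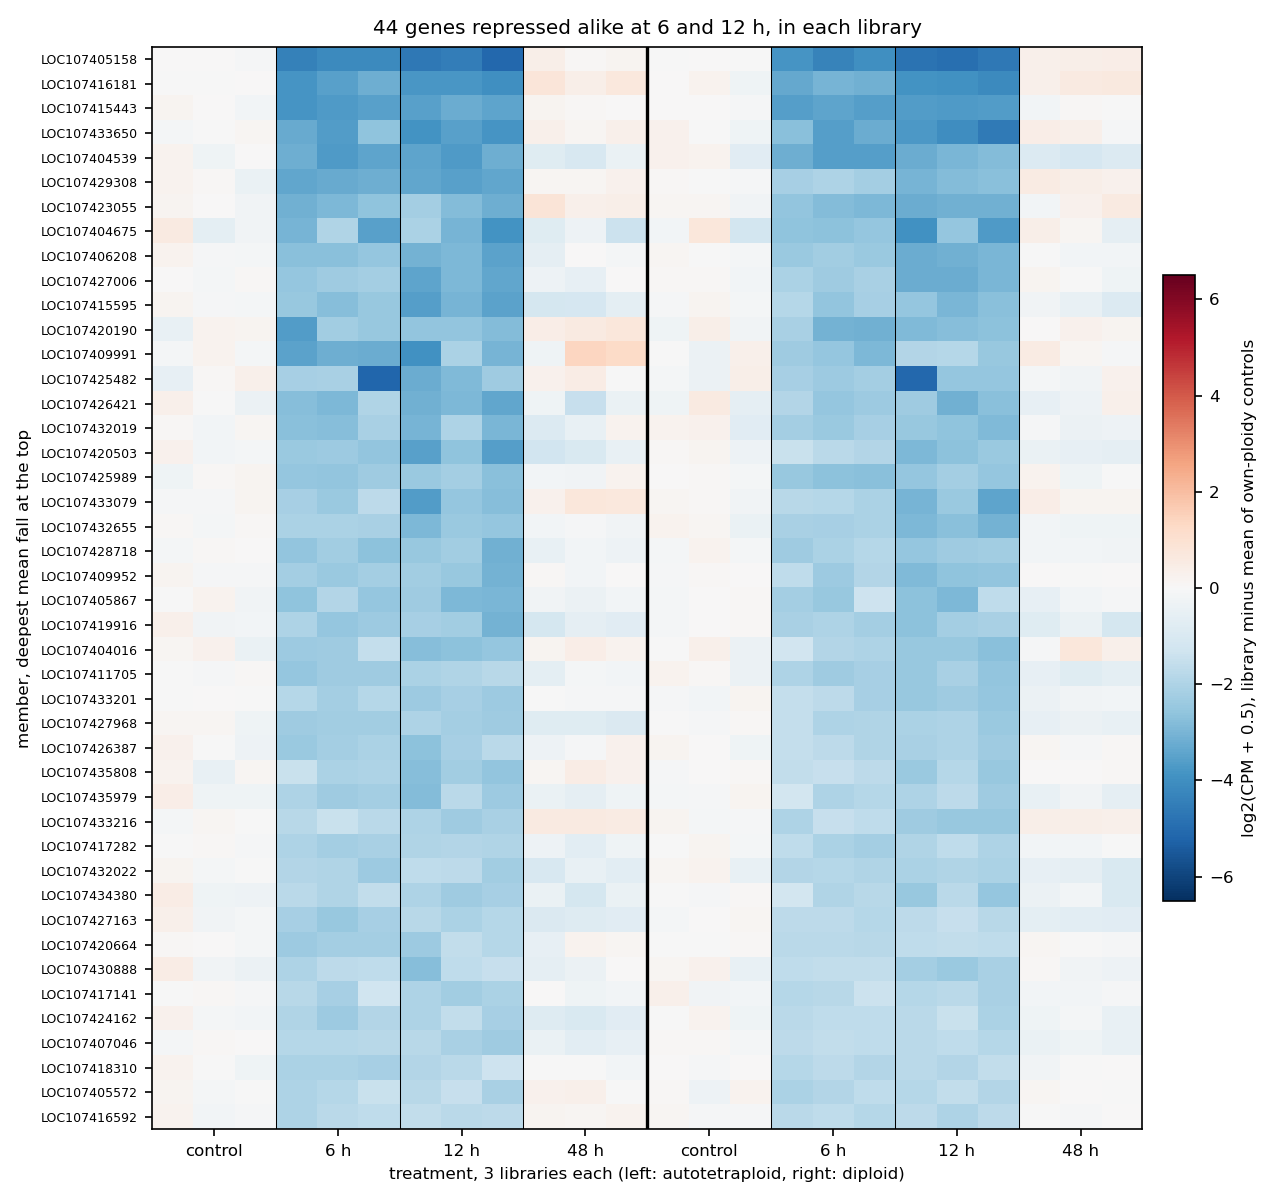
Log2 level of each of the 44 members (vertical axis, lowest mean ratio to control at the top) in each of the 24 libraries (horizontal axis, 3 per group), minus the mean of the controls of the same ploidy; colours give log2(CPM + 0.5) differences. The 6 h and 12 h blocks are blue in both ploidies and the 48 h blocks are pale, and LOC107425482 has 2 isolated dark cells, in the autotetraploid at 6 h and in the diploid at 12 h.

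Summed over the 44 members, their transcripts made up 0.567% to 0.618% of all counts in the autotetraploid controls, 0.115% to 0.134% at 6 h, 0.0984% to 0.116% at 12 h and 0.577% to 0.646% at 48 h. In the diploid they made up 0.529% to 0.604% in the controls, 0.137% to 0.152% at 6 h, 0.101% to 0.118% at 12 h and 0.569% to 0.589% at 48 h. The share was thus low in all 12 libraries of 6 h and 12 h, and the 48 h and control libraries lay in a common range.

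Member by member, the median level in the autotetraploid was 20.5% of control at 6 h (range 5.43% to 31.4%), 16.9% at 12 h (3.79% to 31.9%) and 90.9% at 48 h (52.8% to 193%). In the diploid it was 25.9% at 6 h (6.12% to 33.0%), 19.0% at 12 h (3.62% to 32.6%) and 93.6% at 48 h (51.5% to 144%). Depths varied among the members: 2 stood at 10% or less in all 4 comparisons, and 10 at 20% or less. In both ploidies all 3 libraries of 48 h lay above all 6 libraries of 6 h and 12 h for each of the 44. The limits of the rule on these means left little room for another outcome, so nothing is read from this count. Across the 44 members the log2 ratios to control in the autotetraploid followed those in the diploid, with a Pearson r of 0.907 at 6 h, 0.904 at 12 h and 0.828 at 48 h. These are descriptions over genes chosen for being low in both, which share their libraries.

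The members ranged widely in level. Per transcript length, as FPKM (fragments divided by transcript length and by the library's total), 8 members had a mean under 10 over the 6 controls, 30 lay between 10 and 100, and 6 reached 100 or more. LOC107433079 was highest with a mean of 418 FPKM, followed by LOC107435808 with 317, LOC107428718 with 246 and LOC107416592 with 240 FPKM. The control ranges of each neighbouring pair among these 4 overlapped, so their order is not separated. The range of LOC107416592 did not overlap with that of the next member, LOC107435979, with a mean of 138 FPKM. The lowest was LOC107404539 with 3.8 FPKM.

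LOC107433079, the most abundant in CPM as well, had 527, 531 and 628 CPM in the autotetraploid controls, 124, 105 and 170 CPM at 6 h, 45.1, 96.8 and 82.6 CPM at 12 h and 679, 930 and 903 CPM at 48 h. In the diploid it had 586, 553 and 450 CPM in the controls, 152, 144 and 127 CPM at 6 h, 65.5, 99.1 and 48.8 CPM at 12 h and 720, 606 and 596 CPM at 48 h. In both ploidies the 12 h libraries lay below all of the 6 h libraries, and the 48 h libraries lay above all controls.

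LOC107416592 had the shallowest mean change of all members, 3.37-fold over the 4 comparisons. Its autotetraploid libraries held 459, 355 and 379 CPM in the controls, 99.8, 118 and 125 CPM at 6 h, 133, 117 and 124 CPM at 12 h and 450, 441 and 460 CPM at 48 h. Its diploid libraries held 522, 457 and 445 CPM in the controls, 138, 153 and 131 CPM at 6 h, 147, 117 and 143 CPM at 12 h and 467, 445 and 492 CPM at 48 h. The 6 h and 12 h libraries overlapped in each ploidy, and so did the 48 h and control libraries.

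Ranked by control CPM, which does not divide by length, the other 6 of the 8 most abundant members differed in how 12 h compared with 6 h. LOC107435808 stood at 28.3% of control at 6 h and 17.6% at 12 h in the autotetraploid, and at 33.0% and 21.4% in the diploid. LOC107404016 stood at 24.5% and 15.8% in the autotetraploid and at 31.2% and 17.3% in the diploid. LOC107433650, also among the deepest, stood at 11.6% and 7.46% in the autotetraploid and at 11.5% and 5.88% in the diploid. For these 3 the later mean was thus the lower one in both ploidies. LOC107428718 stood at 17.8% and 16.8% in the autotetraploid and at 24.1% and 19.4% in the diploid. LOC107425989 stood at 18.3% and 18.6% in the autotetraploid and at 16.2% and 19.0% in the diploid. LOC107411705 stood at 19.2% and 26.2% in the autotetraploid, but at 22.5% and 19.3% in the diploid. The 12 h mean was thus the lower one in both ploidies for LOC107428718, the higher one in both for LOC107425989, and on opposite sides in the ploidies for LOC107411705.

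**Figure D2:**
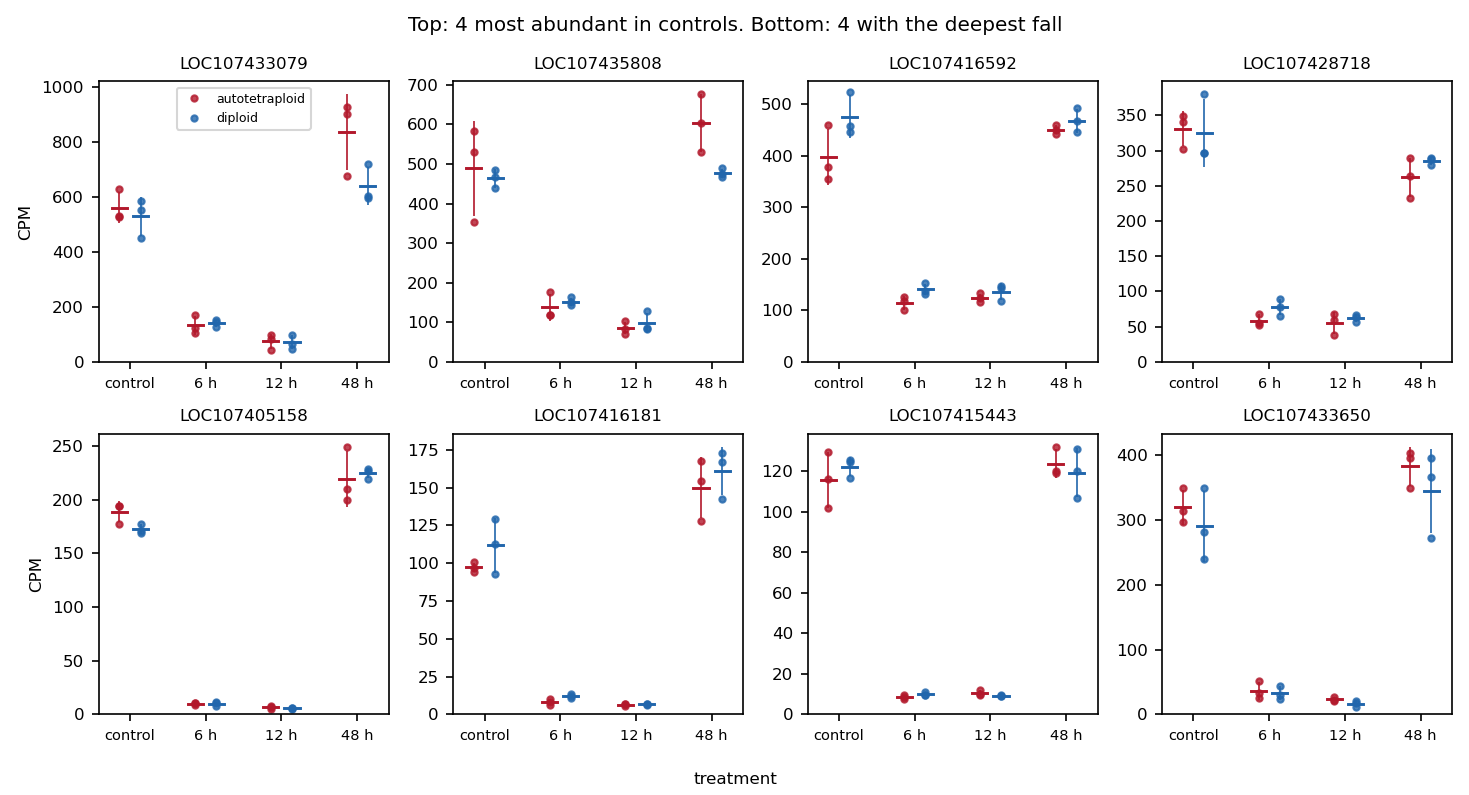
CPM of 8 members by treatment (horizontal axis), autotetraploid in red on the left and diploid in blue on the right of each position; points are libraries, horizontal marks are means and vertical bars are SDs of 3 libraries. The 4 members with the highest control CPM are in the top row and the 4 with the lowest mean ratio to control in the bottom row; LOC107405158 stands at 5.02 to 11.6 CPM in all 12 libraries of 6 h and 12 h.

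LOC107405158 had the largest mean change, 21.6-fold over the 4 comparisons. In the autotetraploid it had 195, 194 and 178 CPM in the controls, 8.62, 10.3 and 10.4 CPM at 6 h, 7.13, 7.89 and 5.02 CPM at 12 h and 249, 199 and 210 CPM at 48 h. Diploid leaves had 171, 178 and 169 CPM in the controls, 11.6, 8.15 and 10.5 CPM at 6 h, 5.72, 5.23 and 6.31 CPM at 12 h and 220, 226 and 229 CPM at 48 h. In each ploidy the 12 h libraries lay below the 6 h libraries and the 48 h libraries above the controls.

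LOC107416181 came next with a 12.3-fold mean change. Its autotetraploid libraries held 94.3, 97.2 and 101 CPM in the controls, 6.38, 8.01 and 10.2 CPM at 6 h, 6.59, 6.72 and 5.63 CPM at 12 h and 167, 128 and 155 CPM at 48 h. Its diploid libraries held 113, 129 and 93.0 CPM in the controls, 10.8, 13.2 and 12.5 CPM at 6 h, 7.02, 6.94 and 5.92 CPM at 12 h and 143, 167 and 173 CPM at 48 h. All 48 h libraries lay above all controls of their ploidy, at a mean of 154% of control in the autotetraploid and 144% in the diploid.

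LOC107415443, with an 11.8-fold mean change, stood at 7.74% of control at 6 h, 9.48% at 12 h and 107% at 48 h in the autotetraploid, and at 8.67%, 8.01% and 97.7% in the diploid. LOC107415443 and LOC107405158 were the members at 10% or less in all 4 comparisons. LOC107429308 reached a 7.55-fold mean change and is described with the ploidies.

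The other 3 of the 8 deepest members were low in level, and their values were less even. LOC107404539 had 7, 0 and 3 counts in the autotetraploid at 6 h and 3, 0 and 6 at 12 h, against 256, 168 and 227 counts in the autotetraploid controls. In the diploid it had 7, 0 and 0 counts at 6 h and 5, 11 and 11 at 12 h, against 325, 239 and 138 counts in the diploid controls. Its ratios of 9.3% to 12.6% of control therefore depend on the 0.5 CPM added. LOC107404675 had 13.2, 5.37 and 7.43 CPM in the autotetraploid controls and 6.28, 12.6 and 2.95 CPM in the diploid controls, and its 6 h and 12 h libraries lay between 0 and 1.86 CPM. LOC107423055 had 7.79 to 11.3 CPM over all 6 controls and 0.579 to 1.59 CPM over the 12 libraries of 6 h and 12 h.

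LOC107425482 was uneven between libraries of a group. It had 8.16, 8.54 and 0.601 CPM in the autotetraploid at 6 h, the last from 21 counts, and 0.62, 6.06 and 6.02 CPM in the diploid at 12 h. One library in each of these groups thus stood far below the other 2. As a whole, the spread between libraries was widest in the autotetraploid at 12 h, where the median coefficient of variation over the 44 members was 21.95%, against 9.50% to 13.74% in the other 7 groups. Over the 15387 genes in the control range it was 12.41% in that group.

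At 12 h the mean lay below that at 6 h for 29 members in the autotetraploid and for 36 in the diploid. It was lower in both ploidies for 27 members, higher in both for 6, lower in the diploid alone for 9 and lower in the autotetraploid alone for 2. Scaling by library totals placed the median log2 ratio of 12 h over 6 h of 21528 genes with at least 1 CPM at 0.12 in the autotetraploid and 0.09 in the diploid. Scaled instead by TMM, edgeR's trimmed mean of M values, which centres most genes on no change, 34 members were lower at 12 h in the autotetraploid and 40 in the diploid. All 3 libraries of 12 h lay below all 3 of 6 h for 12 members in the autotetraploid, where 9.56% of the 15387 genes did so, and for 22 in the diploid, where 12.8% did. They lay above for 5 in the autotetraploid, against 27.2% of the genes, and for 1 in the diploid, against 25.9%. The rule limited this ratio, so nothing is read from these counts.

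**Figure D3:**
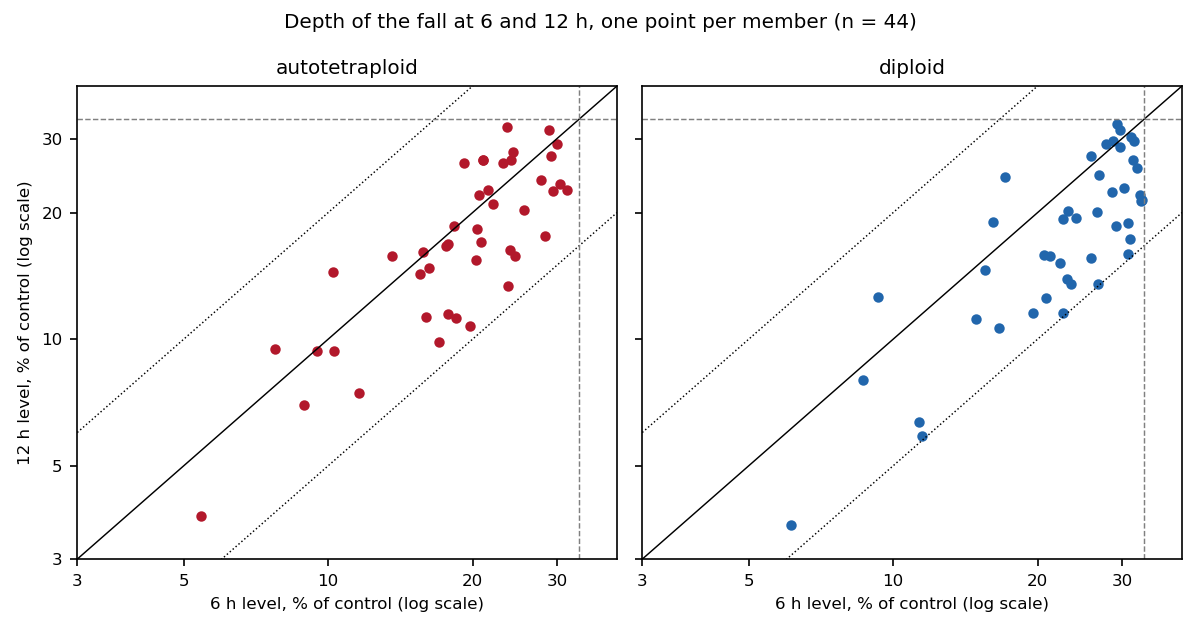
Mean level at 12 h (vertical axis) against mean level at 6 h (horizontal axis), both as % of control on log axes, for the 44 members in autotetraploid (left) and diploid (right) leaves. The solid line marks equal levels, dotted lines the limits of 0.5 and 2 times, dashed lines 1/3 of control; 29 points lie below the solid line in the autotetraploid and 36 in the diploid.

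At 48 h the means of the members lay on both sides of the control, within the limits of the rule. The 48 h mean lay above the control in both ploidies for 12 members, below it in both for 26, and above in a single ploidy for 6. Under TMM scaling 24 members stood below the control in the autotetraploid and 26 in the diploid, where library totals gave 29 in each. All 3 libraries of 48 h lay above all 3 controls for 6 members in the autotetraploid, against 15.5% of the 15387 genes, and for 5 in the diploid, against 13.1%. They lay below for 15 in the autotetraploid, against 20.8%, and for 13 in the diploid, against 12.6%. The rule limited this ratio too. The members named next were chosen after their values were seen. LOC107416181, LOC107433216 and LOC107433079 stood high, at 154%, 149% and 149% of control in the autotetraploid and at 144%, 129% and 121% in the diploid. LOC107419916 and LOC107427163 stood low, at 57.7% and 56.6% in the autotetraploid and at 58.4% and 62.4% in the diploid. LOC107404675 stood at 58.2% in the autotetraploid and at 102% in the diploid, with the uneven controls given above.

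The ploidies were compared at each treatment, averaged over the 4 treatments, and in the size of the change from control (an interaction), which made 8 tests. Each ran over 25829 genes with enough counts, all 44 members among them. In the controls the members were evenly placed, with 22 lower and 22 higher in the autotetraploid and a median log2 ratio of 0.00. At 6 h, 40 of 44 were lower in the autotetraploid, with a median log2 ratio of −0.26, against 0.00 over 21528 genes with at least 1 CPM. All 3 autotetraploid libraries of 6 h lay below all 3 diploid ones for 18 members, where 9.24% of the 15387 genes did so, and above for 0, where 9.18% did. At 12 h, 24 members were lower in the autotetraploid, with 3 fully below and 2 fully above, against 3.52% and 6.87% of the genes. At 48 h, 23 were lower, with 3 fully below and 5 fully above, against 7.17% and 5.95%. In the controls 1 was fully below and 1 fully above, against 4.41% and 7.2%. Of the 15387 genes, 6988 had a lower mean in the autotetraploid in the controls and 7639 at 6 h. At 12 h 6038 of them were lower, and at 48 h 7952.

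Single members passed the test at none of the 4 treatments. By edgeR's quasi-likelihood test, adjusted over all genes, 0 members were called at 6 h, when 0% of all genes tested were called, and the smallest adjusted p of any gene was 0.387. Before adjustment 13 members were under 0.05 at 6 h, where 7.43% of all genes were, and DESeq2 called 1 member, LOC107429308, where it called 0.391% of its genes. In the controls, at 12 h and at 48 h edgeR called 0 members, against 0%, 0.0194% and 0.139% of all genes. Unadjusted p-values under 0.05 were found there for 3, 7 and 3 members, against 8.63%, 5.31% and 8.34% of all genes. DESeq2 called 0 members in each of them, against 0.629%, 0.476% and 1.53% of its genes.

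Other genes with large changes were placed likewise at 6 h. Of the 61 genes that met the depth but not the time course, 50 were lower in the autotetraploid at 6 h, with a median log2 ratio of −0.23 and 21 fully below. Of 100 genes that stood high alike at 6 h and 12 h, by the mirror image of the rule, 73 were higher in the autotetraploid at 6 h, with a median of 0.14 and 18 fully above. The 6 h libraries of the autotetraploid also lay farther from the controls on the first principal component, as given above, and the part of this shift in the members' difference was not tested.

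**Figure D4:**
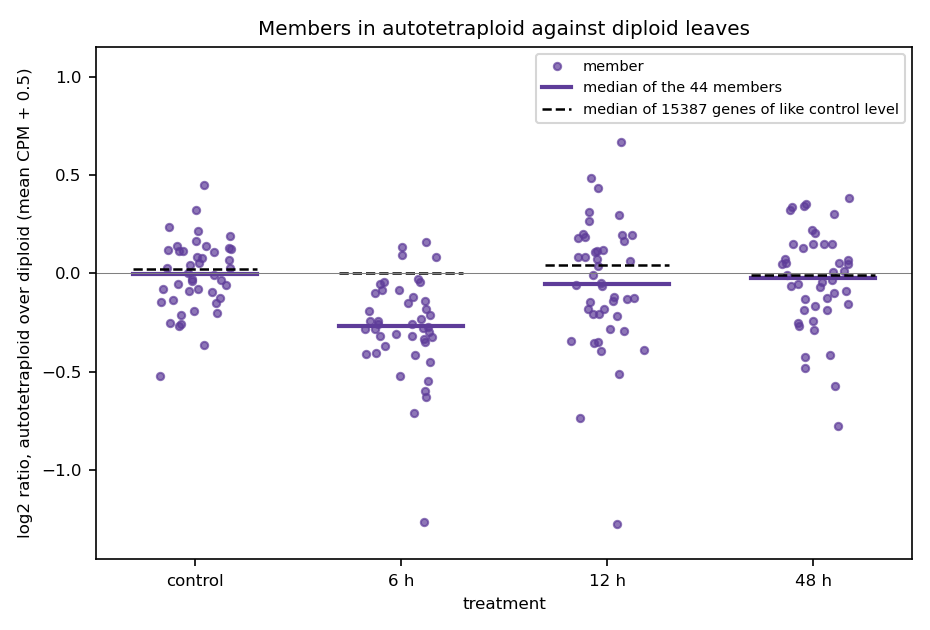
Log2 ratio of mean CPM + 0.5, autotetraploid over diploid (vertical axis), for each of the 44 members (points, spread sideways at random) at each treatment (horizontal axis); purple bars are medians of the members and dashed bars medians of the 15387 genes of like control level. At 6 h 40 points lie below 0, and the control medians lie near 0.

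The change from control at 6 h was larger in the autotetraploid for 37 of 44 members, with a median difference of −0.21 (log2, autotetraploid minus diploid). At 12 h it was larger for 24. As fitted by edgeR, this difference was below 0 for 37 members at 6 h, against 52.4% of all genes tested. At 12 h it was below 0 for 25, against 49.6%. The rule limited the change in each ploidy, so these differences are not independent of how the members were chosen. By edgeR's quasi-likelihood test 0 members and 0% of all genes were called in the interactions at 6 h, 12 h and 48 h, with 4, 3 and 0 members under an unadjusted p of 0.05, against 6.39%, 4.69% and 6.3% of all genes. DESeq2 called 1 member in the interaction at 6 h, against 0.311% of its genes, and 0 at 12 h and 48 h, against 0.293% and 0.574%.

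That member was LOC107429308. It had 182, 163 and 114 CPM in the autotetraploid controls, 14, 15.1 and 16.8 CPM at 6 h, 14.5, 12.9 and 14.2 CPM at 12 h and 168, 165 and 186 CPM at 48 h. Diploid libraries held 119, 108 and 108 CPM in the controls, 24.8, 27.4 and 23.9 CPM at 6 h, 13.4, 15.3 and 16.6 CPM at 12 h and 164, 148 and 138 CPM at 48 h. The ploidies did not overlap at 6 h, and overlapped in the controls through replicate 3 of the autotetraploid. The 6 h interaction was −1.18 ± 0.19 (SE, log2), with an edgeR adjusted p of 0.234. DESeq2 gave −1.16 with an adjusted p of 2e-05. Without replicate 3 of the autotetraploid controls, edgeR gave −1.34 with an adjusted p of 0.00335, and the control difference of 0.43 ± 0.14 (SE, adjusted p = 0.42) became 0.60 with an adjusted p of 0.0416.

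Averaged over the 4 treatments, edgeR called 2 of 44 members, both lower in the autotetraploid, against 0.403% of all genes called in either direction and 0.298% called lower. Unadjusted, 12 members were under 0.05, against 13.8% of all genes. DESeq2 called 4 members, these 2, LOC107409991 and LOC107426421, against 3.18% of its genes. LOC107427006 had 94.4, 84.4 and 97.1 CPM in the autotetraploid controls, 15.7, 18 and 19.5 CPM at 6 h, 8.15, 11.9 and 8.30 CPM at 12 h and 74.2, 63.9 and 93.9 CPM at 48 h. The diploid values were 115, 116 and 97.3 CPM in the controls, 26.4, 21.6 and 25.1 CPM at 6 h, 11.4, 11.5 and 13.8 CPM at 12 h and 125, 109 and 89.3 CPM at 48 h. By library totals the ploidies did not overlap in the controls and at 6 h. The control gap was narrow, 97.1 against 97.3 CPM, and scaling by TMM, as in the test, closes it. Its averaged log2 fold change was −0.40 ± 0.08 (SE), with an edgeR adjusted p of 0.0448.

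LOC107407046 had 48.1, 56.7 and 55.0 CPM in the autotetraploid controls, 14.2, 14.4 and 14.8 CPM at 6 h, 14.8, 12.0 and 10.3 CPM at 12 h and 39.6, 32.5 and 36.4 CPM at 48 h. Diploid leaves had 59.1, 58.7 and 52.0 CPM in the controls, 16.8, 18.5 and 17.5 CPM at 6 h, 16.2, 17.6 and 15.5 CPM at 12 h and 41.9, 46.3 and 40.6 CPM at 48 h. By library totals the autotetraploid libraries lay below all diploid ones at 6 h, 12 h and 48 h, and overlapped with them in the controls. The gap at 48 h was narrow, 39.6 against 40.6 CPM, and scaling by TMM, as in the test, closes it. Its averaged log2 fold change was −0.27 ± 0.06 (SE), with an edgeR adjusted p of 0.0448. Both calls sat close to the threshold, and with no filter on low counts that of LOC107407046 was lost (edgeR adjusted p = 0.053). In fits that each left out 1 of the 24 libraries, that of LOC107407046 held in 5 and that of LOC107427006 in 7. Both held without replicate 3 of the diploid controls, replicate 1 of the diploid at 6 h and replicate 3 of the autotetraploid controls. LOC107407046 also held without replicate 1 of the autotetraploid at 12 h or at 48 h. LOC107427006 also held without replicate 2 of either ploidy at 12 h and replicate 3 of either ploidy at 48 h.

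LOC107409991 had the lowest ratio of the ploidies at 6 h and was chosen after its values were seen. In the autotetraploid it had 24.2, 30.3 and 24 CPM in the controls, 1.92, 2.45 and 2.32 CPM at 6 h, 1.25, 5.99 and 2.83 CPM at 12 h and 21.2, 70.4 and 61.6 CPM at 48 h. In the diploid it had 37.2, 28.5 and 47.4 CPM in the controls, 7.34, 6.16 and 4.63 CPM at 6 h, 9.86, 10.1 and 6.5 CPM at 12 h and 54.0, 41.2 and 36.1 CPM at 48 h. The ploidies did not overlap at 6 h and 12 h and overlapped in the controls and at 48 h, where replicate 1 of the autotetraploid stood below all of its controls. The averaged log2 fold change was −0.80 ± 0.21 (SE), with an edgeR adjusted p of 0.1, and DESeq2 gave −0.79 with an adjusted p of 0.0108. Without replicate 2 of the autotetraploid at 12 h, edgeR gave −0.97 with an adjusted p of 0.0346.

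**Figure D5:**
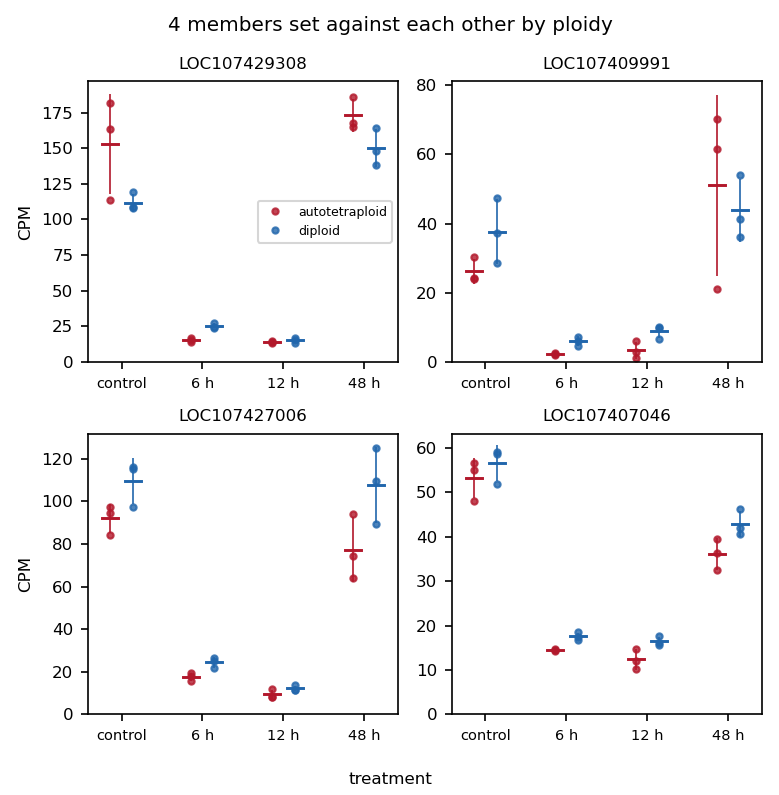
CPM of 4 members by treatment (horizontal axis), autotetraploid in red on the left and diploid in blue on the right of each position; points are libraries, horizontal marks are means and vertical bars are SDs of 3 libraries. LOC107429308 and LOC107409991 lie lower in the autotetraploid at 6 h, and the means of LOC107427006 and LOC107407046 are lower in the autotetraploid at every treatment.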

How the data were processed

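Leaf RNA was sequenced in 24 libraries, 3 in each of 8 groups taken from the sample labels. HISAT2 and StringTie are named, with no version, in the submitters' processing notes. Genome build, annotation and strand setting: not given in the sources used here. Gene counts were deposited by the authors as whole numbers, not normalized, per the file headers. FPKM values were deposited by the authors in 1 table per group; the unit was inferred by comparing the values with the counts. Genes that share reads with a copy or overlap a neighbour are uncertain.

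The members and the rules for naming genes were chosen with earlier results of these data known. Named were the 8 with the highest control CPM and the 8 deepest members, those called between ploidies, and those nearest the limits. Counts were tested in R 4.3.3 with edgeR 4.0.16, with filterByExpr and TMM. The model was 1 robust quasi-likelihood fit over 8 groups with 16 residual degrees of freedom. Genes were called at a Benjamini-Hochberg adjusted p under 0.05. On simulated data only the comparison of the ploidies in the controls was tried, not the averaged comparison or the interactions. Each SE given with an edgeR value was derived from the test, as the absolute log2 fold change divided by the square root of its F value. DESeq2 1.42.0 was an alternative. Members and levels used library totals in Python 3.11.15 with pandas 2.3.3; 0.5 CPM was added before ratios. No sequences and no gene descriptions were used here.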

Additional observations from a re-analysis of the deposited data

Results flagged for a closer look

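LOC107429308 drew attention because its change at 6 h differed between the ploidies in a test of that difference. The log2 interaction was −1.16 by DESeq2 (adjusted p = 2e-05), and all 3 autotetraploid libraries of 6 h lay below all 3 diploid ones. The edgeR quasi-likelihood test gave −1.18 with an adjusted p of 0.234, and −1.34 with an adjusted p of 0.00335 without replicate 3 of the autotetraploid controls. The call thus depends on the tool and on that library. The rule also limited the change at 6 h in each ploidy, so this difference is not independent of how the member was chosen.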

How the results depend on the processing

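Among 316 recomputed values, 241 kept their direction and side of the threshold or stayed within 1.5 times, 30 moved further, 39 lost the threshold, 6 passed it, and 0 reversed. Many of the values kept were counts of members called that stayed at 0 where few or no genes were called, so this tally does not measure stability. The count called on average over treatments stayed within 1.5 times in 4 of 24 fits without 1 library. The number of members was 162 with a depth limit of 0.5 times control, 20 with 0.25 times and 25 with a 12 h to 6 h range of 0.67 to 1.5, and 37 to 48 without 1 library at a time. Averaged over treatments, members called were 1 with no filter on low counts (83 of 29454 genes called), 4 by DESeq2 (857 of 26936), 0 with the replicate block (45 of 25829) and 0 to 2 without 1 library (20 to 255 genes). With the block the edgeR adjusted p was 0.0719 for LOC107407046 and 0.077 for LOC107427006. DESeq2 called 1 at 6 h and 1 in the 6 h interaction. Without 1 library, edgeR called 0 to 1 in the controls and 0 to 1 in the 6 h interaction, 1 in both cases without replicate 3 of the autotetraploid controls. The count of members lower in the autotetraploid at 6 h was 35 to 41 without 1 library, and that of members whose 6 h libraries did not overlap was 17 with TMM or DESeq2 size factors and 19 with FPKM, against 18 as reported. Without 1 library this count was 19 to 24, where fewer libraries make such a gap easier. Same-numbered libraries did not deviate together (r between −0.04 and 0.05), so the numbers were not taken as pairs. The causes were not tested.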
